A study of Rattus norvegicus with 18 samples.

Results

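Fam81a, Tmtc1, Dynlt2b, Micu3 and Ttr are 5 rat genes whose messenger RNA was higher in resting hippocampal neurons that carried shRNAs against MEF2 than in neurons that carried control shRNAs. They were picked from that difference at 0 h of stimulation. Every probe set annotated to 1 of these symbols alone was taken as a member, which gave 7 of the 31099 probe sets in the table. The 5 genes stand among 14218 with a probe set of 1 symbol. Fam81a has 3 probe sets (1373218_at, 1378245_at and 1394881_at). Tmtc1 (1372583_at), Dynlt2b (1396123_at), Micu3 (1373196_at) and Ttr (1367598_at) have 1 each. A further probe set, annotated jointly to Mt1f, Ttr and Mt1, was not counted.

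The data are 18 Affymetrix arrays of total RNA from dissociated rat hippocampal cultures, 3 arrays in each of 6 groups. Lentivirus was given on day 3 in vitro and carried either control shRNAs, called the control arm here, or shRNAs against both MEF2A and MEF2D, called the RNAi arm. On day 10 every culture had 1 h of AP5, an NMDA receptor blocker, and TTX, a sodium channel blocker, and then 0, 1 or 6 h of 55 mM KCl, which depolarizes neurons. The stated aim was to find activity-regulated genes that MEF2 controls. The resting groups were thus silenced by the blockers, all groups carried a virus, and the virus could reach any cell of the culture. The labels call the arrays biological replicates 1 to 3 of each group and say no more about the cultures, so p-values measure the spread between these arrays.

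MEF2 proteins are transcription factors that bind an A/T-rich DNA element and are switched between repressing and activating forms by calcium signals. In hippocampal neurons MEF2A and MEF2D are known for limiting the number of excitatory synapses during activity. The 5 genes belong to no single pathway. FAM81A is a protein of the postsynaptic density, the protein layer under excitatory synapses. TMTC1 is a membrane protein of the endoplasmic reticulum that adds mannose to cadherins. DYNLT2B is a light chain of dynein-2, the motor that carries cargo back along cilia. MICU3 is a brain-enriched partner of the mitochondrial calcium uniporter, the channel by which mitochondria take up calcium. Transthyretin, the product of Ttr, carries thyroid hormone and retinol-binding protein and is made in the brain mainly by the choroid plexus.

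The targeted genes were measured first. By its brightest probe set, Mef2a stood at 32.8%, 26.5% and 27.6% of the control level at 0, 1 and 6 h, and the brighter Mef2d probe set stood at 69.5%, 74.7% and 67.5%. The other Mef2d probe set stood at 90.8%, 100.3% and 94.5% and was not called lower at 1 h (limma adjusted p = 0.977) or 6 h (0.484). Mef2c, which the shRNAs were not named for, was lower by its brighter probe set over the mean of 1 h and 6 h (log2 -0.34, limma adjusted p = 0.013). At 1 h (log2 -0.38) and 6 h (-0.30) it was not called without the replicate number as a block (limma adjusted p = 0.0613 and 0.137) and was called with it (0.0035 and 0.0126). The dimmer Mef2c probe set stood at 85.7% and 81.3% of control at 1 h and 6 h. Without the block it was not called at either time (limma adjusted p = 0.665 and 0.549). Array medians ran from 240 to 248, and arrays of 1 group correlated at 0.9938 to 0.9979 on the log2 scale. The neuronal markers Snap25, Syt1, Stmn2 and Map2 were all measured above the filter on low signal. Over the mean of 1 h and 6 h, Snap25 was called higher with RNAi (log2 0.15, limma adjusted p = 0.0311) and Map2 lower (-0.22, 0.0129). Syt1 (-0.07) and Stmn2 (0.00) were not called (limma adjusted p = 0.564 and 0.951). The vesicular glutamate transporter genes Slc17a7 and Slc17a6, markers of excitatory neurons, fell with RNAi over 1 h and 6 h (log2 -0.59 and -0.41, limma adjusted p = 0.00854 and 0.00668). In bulk RNA, fewer cells of a type and less RNA per cell cannot be told apart.

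RefSeq promoter entries were matched for 3 of the 5 genes. The 250 bases before the annotated start are shown because the RNAi targets are DNA-binding factors, and because these windows differ in kind. All are on build GRCr8 and are written 5′ to 3′ along the gene. Capitals mark a short cyclic AMP response element (CRE) core overlapping an E-box.
Tmtc1, chr4:183089409-183089658, minus strand: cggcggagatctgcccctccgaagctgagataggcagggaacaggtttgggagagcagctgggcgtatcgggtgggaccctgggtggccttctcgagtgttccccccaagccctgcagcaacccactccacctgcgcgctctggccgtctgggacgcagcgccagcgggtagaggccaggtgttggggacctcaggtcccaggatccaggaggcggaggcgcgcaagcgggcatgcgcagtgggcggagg
Dynlt2b, chr11:81872556-81872805, minus strand: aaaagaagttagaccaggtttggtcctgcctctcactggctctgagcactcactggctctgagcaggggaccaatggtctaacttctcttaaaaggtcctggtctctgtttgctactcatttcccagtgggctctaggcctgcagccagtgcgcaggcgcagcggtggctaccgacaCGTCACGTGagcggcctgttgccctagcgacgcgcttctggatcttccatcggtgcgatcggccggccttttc
Ttr, chr18:12218508-12218757, plus strand: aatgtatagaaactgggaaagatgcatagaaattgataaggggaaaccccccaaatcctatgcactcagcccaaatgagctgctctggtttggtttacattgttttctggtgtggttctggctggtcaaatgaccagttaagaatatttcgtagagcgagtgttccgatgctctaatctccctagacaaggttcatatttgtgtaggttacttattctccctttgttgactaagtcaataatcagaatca

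Tmtc1 has a window rich in G and C (68.8%), in the upper quartile of all 33469 RefSeq windows, whose median is 51.2%. Dynlt2b has 58.0% G and C, and Ttr has 40.4%, below the lower quartile of 44.0%. Both strands were searched for 4 motifs. None of the 3 windows, nor that of a second annotated Tmtc1 start, holds the MEF2 consensus, which 2.96% of all windows hold, or the full CRE TGACGTCA, which 1.59% hold. Dynlt2b alone among them holds the short CRE core TGACG, starting 73 bases before the start, and the E-box CACGTG, starting 70 bases before it, and these matches overlap. Of all windows, 18.2% hold that core and 5.59% that E-box. A match is a description of letters, and binding was not measured.

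At rest, the values that chose the genes were as follows, and they are given without a test. On the log2 scale the RNAi arm exceeded the control arm by 1.94, 1.71 and 1.11 for the Fam81a probe sets 1373218_at, 1394881_at and 1378245_at. The excess was 1.56 for Tmtc1, 1.37 for Dynlt2b, 1.20 for Ttr and 1.04 for Micu3. Among all probe sets these differences ranked 1, 2, 37, 5, 12, 23 and 47 in the order just given. RNAi arrays lay wholly above control arrays for 6 of the 7 probe sets, against 15.2% of the 19321 probe sets tested below, and Ttr was the exception. Choosing genes on these arrays favours such separation, so that count is a description only.

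The groups stimulated for 1 h and 6 h did not take part in that choice at 0 h. They were tested separately with limma, over 12 arrays and 19321 probe sets. They share shRNAs and replicate numbers with the 0 h arrays. Deviations of same-numbered arrays from their group means correlated at 0.103 to 0.720. The counts below are therefore not independent of that choice, and 3 of the 7 probe sets are of 1 gene, Fam81a. All 7 member probe sets passed the filter. In every group at least 2 of the 3 arrays were above it, so none passed through the RNAi arm alone. A probe set was called at a Benjamini-Hochberg adjusted p under 0.05, two-sided. At 1 h, 6 of the 7 were called higher with RNAi (all but Ttr), where 6.12% of all probe sets were. At 6 h, 5 of the 7 were (all but Ttr and Micu3), against 6.65%. Over the mean of both times all 7 were, against 12.8%. The members' median difference was 1.19, 1.46 and 1.33, and that of all probe sets tested was 0.01, 0.01 and 0.01. RNAi arrays lay wholly above control arrays for 7 of 7 at 1 h (14.9% of all) and for 5 of 7 at 6 h (16.2% of all).

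**Figure D1:**
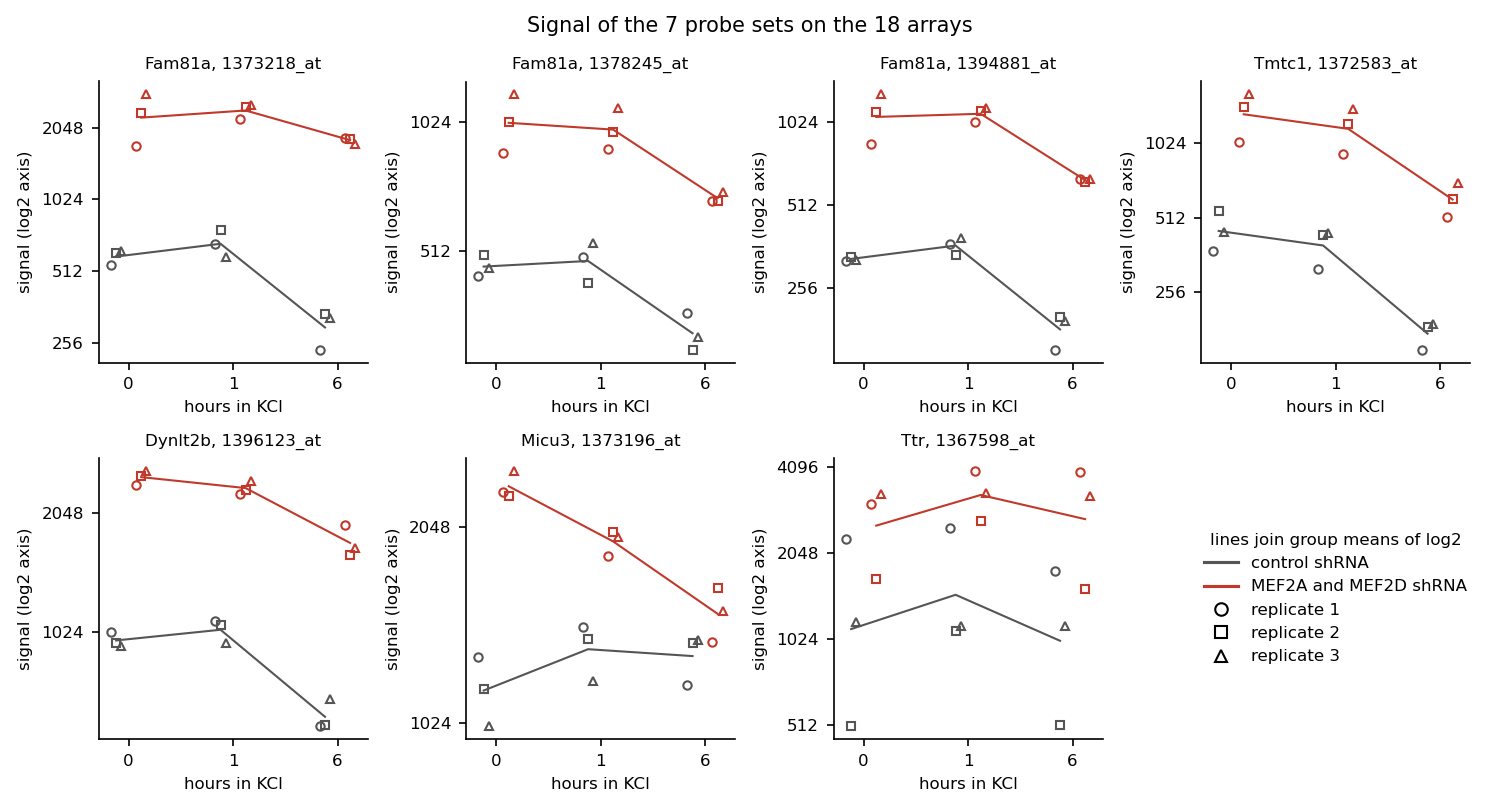
Signal of each member probe set (intensity on a log2 axis, each panel with its own range) against hours in KCl; points are arrays, marker shapes are replicate numbers, and lines join the means of log2 in the control arm (grey) and the RNAi arm (red). Fam81a, Tmtc1 and Dynlt2b fell between 1 h and 6 h in both arms while the arms stayed apart; Micu3 came together at 6 h, with RNAi arrays at 1364 to 1649 and control arrays at 1171 to 1373.

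Of all probe sets tested, Fam81a 1373218_at showed the largest excess with RNAi, both at 1 h and at 6 h. This probe set, the brightest of Fam81a, gave signals of 542, 609 and 618 in the control arm at 0 h, 664, 761 and 585 at 1 h, and 239, 337 and 324 at 6 h. In the RNAi arm it gave 1714, 2370 and 2828 at 0 h, 2221, 2508 and 2539 at 1 h, and 1857, 1835 and 1754 at 6 h. All 9 RNAi arrays lay above all 9 control arrays, and the control arrays at 6 h were the lowest of all. The difference was 1.86 on the log2 scale at 1 h (3.63-fold, SE 0.13, n = 3 arrays per group, limma adjusted p = 1.14e-05). At 6 h it was 2.61 (6.12-fold, SE 0.13, limma adjusted p = 3.75e-06).

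The other Fam81a probe sets moved the same way by smaller amounts. For 1394881_at the control arrays spanned 153 to 389 and the RNAi arrays 619 to 1295 over the 3 times, and the difference was 1.59 at 1 h and 1.80 at 6 h (limma adjusted p = 1.01e-05 and 5.25e-06). For 1378245_at the control arrays spanned 302 to 536 and the RNAi arrays 670 to 1189, and the difference was 1.02 and 1.04 (limma adjusted p = 0.000114 and 0.000142). Neither probe set had a control array as bright as its dimmest RNAi array. How these probe sets divide among Fam81a transcripts was not tested.

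With longer KCl, Fam81a fell in the control arm. Between 1 h and 6 h the control arm fell by 1.17 for 1373218_at, 1.01 for 1394881_at and 0.56 for 1378245_at on the log2 scale (limma adjusted p = 4.94e-05, 2.29e-05 and 0.00165). The RNAi arm fell by 0.41, 0.80 and 0.53 (limma adjusted p = 0.0329, 0.000154 and 0.00277). The fall of 1373218_at in the RNAi arm was not called with no filter (adjusted p = 0.0897), with all 18 arrays in the fit (0.0638) or when any single RNAi array but replicate 1 at 1 h was left out (0.0612 to 0.102). For 1373218_at the gap between the arms was 0.75 wider at 6 h than at 1 h (95% confidence interval 0.35 to 1.15). This change of the gap was not called without the replicate number as a block (limma adjusted p = 0.315) or with it (0.0747). For the other probe sets it was 0.21 and 0.03. By group mean of 1373218_at, RNAi at 1 h was highest, followed by RNAi at 0 h, RNAi at 6 h, control at 1 h, control at 0 h and control at 6 h. Neighbours in that order overlapped within each arm, except that control at 6 h lay wholly below control at 0 h.

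Tmtc1 was measured by 1 probe set. It gave 377, 546 and 450 in the control arm at 0 h, 318, 438 and 445 at 1 h, and 150, 186 and 190 at 6 h. In the RNAi arm it gave 1038, 1429 and 1609 at 0 h, 928, 1222 and 1403 at 1 h, and 518, 608 and 707 at 6 h. Arrays of the arms did not overlap at any time, although RNAi at 6 h came down to the range of control at 0 h. The difference was 1.56 on the log2 scale at 1 h (2.95-fold, SE 0.18, n = 3 arrays per group, limma adjusted p = 0.000243) and 1.79 at 6 h (3.47-fold, limma adjusted p = 0.000142).

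From 1 h to 6 h Tmtc1 fell by 1.18 in the control arm and by 0.95 in the RNAi arm (limma adjusted p = 0.000434 and 0.00222). The gap between the arms changed by 0.23, with a 95% confidence interval from -0.32 to 0.79 in the fit without the replicate number. The SE of this change was 0.25 there and 0.092 with the replicate number as a block. With the block the change was not called (limma adjusted p = 0.39). In each arm the 6 h arrays lay wholly below the 1 h arrays, while 0 h and 1 h overlapped. One control array at 6 h was under the filter on low signal, so the control level there is near the dim end of what was tested.

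Dynlt2b gave 1029, 960 and 944 in the control arm at 0 h, 1094, 1069 and 960 at 1 h, and 592, 598 and 693 at 6 h. In the RNAi arm it gave 2422, 2546 and 2625 at 0 h, 2297, 2353 and 2472 at 1 h, and 1910, 1605 and 1671 at 6 h. All 9 RNAi arrays lay above all 9 control arrays. The difference was 1.19 at 1 h (2.28-fold, SE 0.087, n = 3 arrays per group, limma adjusted p = 1.65e-05) and 1.46 at 6 h (2.75-fold, limma adjusted p = 6.19e-06). Like Fam81a and Tmtc1 it fell from 1 h to 6 h, by 0.73 in the control arm and by 0.46 in the RNAi arm (limma adjusted p = 8.42e-05 and 0.00226). The gap between the arms changed by 0.27 (95% confidence interval 0.00 to 0.54, limma adjusted p = 0.868).

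Micu3 gave control values that stayed nearly level and RNAi values that came down toward them. Its signals were 1294, 1156 and 1012 in the control arm at 0 h, 1436, 1378 and 1186 at 1 h, and 1171, 1358 and 1373 at 6 h. In the RNAi arm they were 2320, 2283 and 2499 at 0 h, 1850, 2015 and 1977 at 1 h, and 1364, 1649 and 1520 at 6 h. The control groups overlapped at all times, and the RNAi groups stepped down without overlap from 0 h to 1 h and from 1 h to 6 h. The arms were apart at 0 h and 1 h, and at 6 h 1 RNAi array lay within the control range.

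The Micu3 difference was 0.55 on the log2 scale at 1 h (1.46-fold, SE 0.096, n = 3 arrays per group, limma adjusted p = 0.0032). At 6 h it was 0.22 (95% confidence interval 0.01 to 0.43) and was not called (limma adjusted p = 0.171). From 1 h to 6 h the RNAi arm fell by 0.37 (limma adjusted p = 0.0139), and the control arm changed by -0.04 (limma adjusted p = 0.828). The fall in the RNAi arm was not called without replicate 1 at 6 h (adjusted p = 0.055) or without replicate 2 at 1 h (adjusted p = 0.0521) of that arm. The gap between the arms changed by -0.33 between those times (95% confidence interval -0.63 to -0.04), and this was not called (limma adjusted p = 0.767). A different course in the arms over 1 h to 6 h was therefore not shown for Micu3.

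Over all probe sets, few changed their gap between the arms from 1 h to 6 h. Limma called 6 of 19321, or 0.0311%, and none of the 7 members, while 1110 had an unadjusted p under 0.05 and 99 were called with the replicate number as a block, again none of the members. From 1 h to 6 h, 5 of the 7 members were called lower in the control arm, against 17.6% of all probe sets. In the RNAi arm 6 of the 7 were called lower, against 14.5%.

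Ttr had the widest spread between replicates of the 5 genes. It gave 2305, 508 and 1176 for control replicates 1, 2 and 3 at 0 h, 2514, 1097 and 1145 at 1 h, and 1775, 514 and 1137 at 6 h. In the RNAi arm it gave 3060, 1665 and 3302 at 0 h, 3988, 2656 and 3334 at 1 h, and 3936, 1535 and 3257 at 6 h. Replicate 2 was lowest in 6 of 6 groups, and replicate 1 was highest in all 3 control groups and in 2 of the 3 RNAi groups. The arms overlapped at 0 h and 6 h and were apart at 1 h. Within a replicate number, the RNAi array was above its control array at every time, by 0.67 to 1.58 on the log2 scale over 1 h and 6 h.

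In the fit without the replicate number, Ttr was 1.16 higher with RNAi at 1 h (2.24-fold, SE 0.47, n = 3 arrays per group) and 1.42 higher at 6 h (2.67-fold), and neither was called (limma adjusted p = 0.133 and 0.0677). Over the mean of both times it was called, at 1.29 (SE 0.33, limma adjusted p = 0.0138), although not with no filter on low signal (adjusted p = 0.0584). With the replicate number as a block the same differences were called at each time (limma adjusted p = 0.0029 at 1 h and 0.000937 at 6 h), which made 7 of 7 members called at 1 h and 6 of 7 at 6 h. That block raised the count in either direction over all 19321 probe sets from 2787 (14.4%) to 4793 at 1 h. At 6 h this count rose from 2791 (14.4%) to 4909. The count called higher rose from 1182 to 2197 at 1 h and from 1285 to 2474 at 6 h. Leaving out 1 array at a time, without the block, moved the Ttr difference at 6 h between 0.93 (without control replicate 2 at 6 h, limma adjusted p = 0.234) and 1.82, and it was called only without control replicate 1 or RNAi replicate 2 at 6 h (0.0319 and 0.0322). At 1 h it moved between 0.95 and 1.55 and was not called in any of these fits (limma adjusted p = 0.0712 to 0.3). Ttr did not pass the test between 1 h and 6 h in the control arm (-0.54, limma adjusted p = 0.443) or in the RNAi arm (-0.28, limma adjusted p = 0.737).

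**Figure D2:**
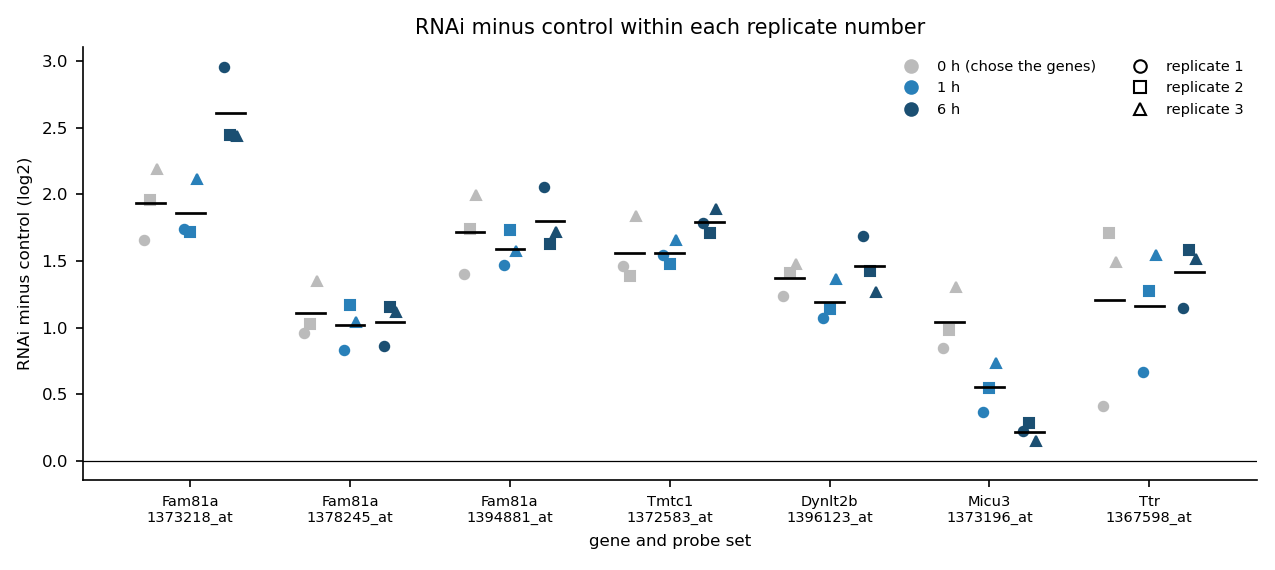
RNAi minus control on the log2 scale within each replicate number, for each member probe set at 0 h (grey, the values that chose the genes), 1 h and 6 h; bars are means of 3 differences and marker shapes are replicate numbers. Every difference is above 0; Ttr differences run from 0.67 to 1.58 at 1 h and 6 h, and Micu3 differences lie at 0.15 to 0.74.

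Because Ttr marks choroid plexus epithelium, the other markers of that tissue were measured beside it. Of the 10 on the array besides Ttr, 4 (Kl, Kcnj13, Otx2 and Sostdc1) were not above the filter. Kl ranged from 55 to 80 and Kcnj13 from 67 to 80 over the 18 arrays, at about the floor of 72.61. Of the 6 tested, only Folr1, a folate receptor, was called over the mean of 1 h and 6 h (log2 0.17, limma adjusted p = 0.00741), with signals of 242 to 308. With the replicate block 2 were called, the other being Enpp2 (log2 0.44, limma adjusted p = 0.275 without the block and 0.000447 with it), a lysophospholipase that oligodendrocytes make too. The summed signal of the 10 was 1936 to 2059 in the control arm and 2075 to 2268 in the RNAi arm at 1 h. The control arm spanned 1890 to 2124 and the RNAi arm 2066 to 2326 at 6 h, and at 0 h they spanned 1864 to 2091 and 1895 to 2248. The part of choroid plexus cells in the Ttr difference was not tested.

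Astrocyte markers moved with both the arm and the replicate number. Of 9 tested, 4 were called higher over the mean of 1 h and 6 h and none lower. These were S100b, a calcium-binding protein (log2 0.43), Aldoc, a glycolytic enzyme (0.33), Gja1, a gap junction protein (0.31), and Gfap, an intermediate filament (0.21), with limma adjusted p from 0.00748 to 0.0404. With the replicate block 6 were called higher and Aldh1l1 lower. Their summed signal was 37711 to 48173 in the control arm and 46803 to 56107 in the RNAi arm at 1 h. The control arm spanned 37708 to 45418 and the RNAi arm 45017 to 53792 at 6 h. Replicate 2 had the lowest astrocyte sum in 6 of 6 groups, as it had the lowest Ttr. Replicate 2 had the lowest choroid plexus sum in 1 of 6 groups. The pattern was not particular to astrocyte markers. The sum of 13 interferon response genes was also lowest in replicate 2 in 6 of 6 groups. It was 2636, 2574 and 2680 there in the control arm at 0, 1 and 6 h, and 2914, 2867 and 3026 in the RNAi arm. The groups share the replicate numbers, so they do not show this order independently. The part of astrocytes in the Ttr difference was not tested.

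**Figure D3:**
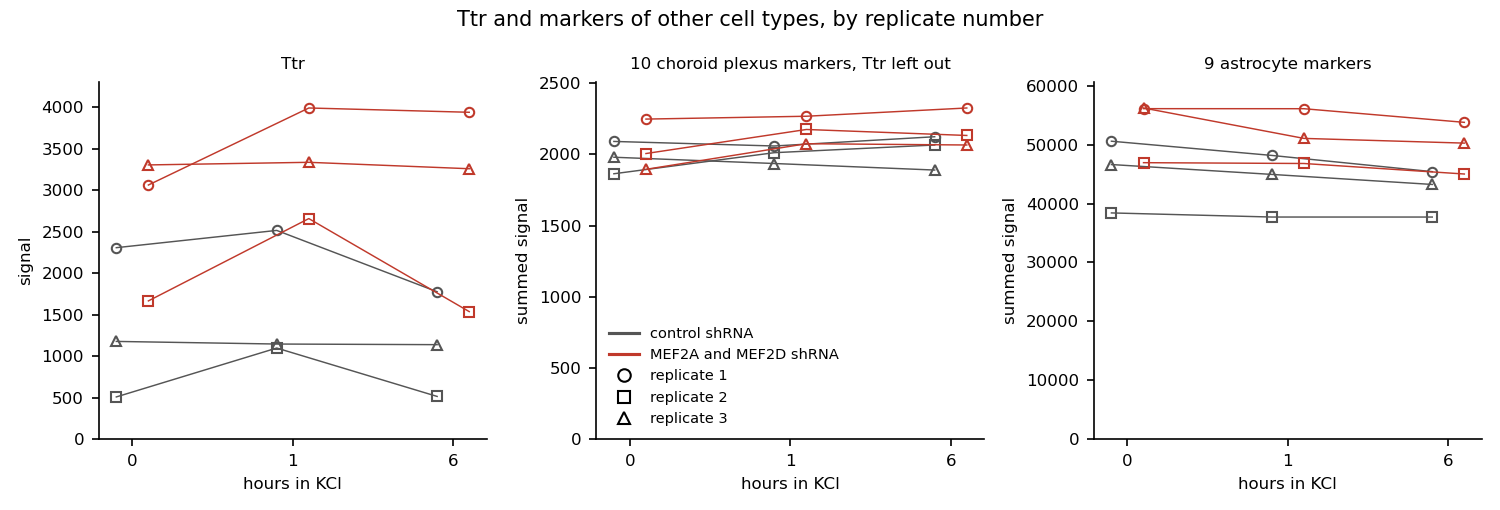
Ttr signal (left), the summed signal of 10 choroid plexus markers without Ttr (middle) and the summed signal of 9 astrocyte markers (right), each in intensity from 0, against hours in KCl; each line follows 1 replicate number (marker shape) in the control arm (grey) or the RNAi arm (red). Replicate 2 (squares) is lowest within each arm at each time for Ttr and for the astrocyte sum but not for the choroid plexus sum, which stays between 1864 and 2326.

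Markers of other cells moved differently. Of 12 neuronal markers tested, 1 was called higher, Snap25 (log2 0.15), and 5 lower. With the replicate block 7 were lower, Rbfox3 and Tubb3 being added. The 5 included Nefm, a neurofilament subunit (-1.08), and Slc32a1, the vesicular GABA transporter (-0.61). Gad1, which encodes an enzyme of GABA synthesis, was not called (-0.02, limma adjusted p = 0.894). The 6 microglial, 6 oligodendrocyte lineage and 5 proliferation markers tested gave no limma calls in either direction, although the block called Cnp higher and Mbp lower. Among 5 endothelial and fibroblast markers 3 were called lower over the mean of 1 h and 6 h, namely Lum (-0.67), Dcn (-0.76) and Cldn5 (-0.56). Lum was called lower at 1 h (-1.34, limma adjusted p = 4.86e-05) but not at 6 h (-0.01, 0.98). Cldn5 was called lower at 6 h (-0.97, limma adjusted p = 0.00203) but not at 1 h (-0.16, 0.577). Of 3 ependymal and motile cilia markers Rsph1 was called lower over the mean (-0.64). The part of these cell types in the differences of the 5 genes was not tested. Of the 6 interferon response genes tested, Gbp2 (0.49) and Irf9 (0.19) were called higher, and 4 were with the block. Over all 10840 genes, taking the brightest probe set of each, 1640 (15.1%) were called higher and 1477 (13.6%) lower. With the replicate block 2347 were called higher and 2047 lower, which is the background for the list counts with the block.

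The other genes of each member's pathway are given from lists written from general knowledge, with each gene represented by its brightest probe set and differences taken over the mean of 1 h and 6 h. Of 11 other postsynaptic density genes, none was called higher and 7 were called lower (9 lower with the replicate block, which added the NMDA receptor genes Grin1 and Grin2b), with a list median of -0.24 beside 0.02 over all genes. The smallest adjusted p were those of the scaffold gene Shank1 (-0.73, limma adjusted p = 1.44e-05), the kinase subunit gene Camk2b (-0.34, 0.000281) and, with equal values, the scaffold gene Shank3 (-0.64) and the kinase subunit gene Camk2a (-0.44, both 0.00133). Dlg4, which encodes the scaffold PSD-95, gave 0.00 (limma adjusted p = 0.971). Fam81a was thus the one gene of this list called higher.

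Of 9 genes of protein O-mannosylation besides Tmtc1, Pomgnt2, which extends the mannose on dystroglycan, was called higher (log2 0.32, limma adjusted p = 0.000586). Dpm1 (-0.50) and Dpm2 (-0.14), subunits of the enzyme that makes the mannose donor, were called lower (limma adjusted p = 6.91e-05 and 0.0208). Tmtc3, the paralog tested, gave -0.02 (limma adjusted p = 0.898).

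Of 9 other dynein light chain and dynein-2 genes, Dync2li1, a light intermediate chain of dynein-2, was called higher (log2 0.22, limma adjusted p = 0.00251). Dync2h1, the heavy chain of the same motor, was called lower (-0.25, limma adjusted p = 0.0133), as was Dynlt3, a light chain of cytoplasmic dynein (-1.26, SE 0.12, limma adjusted p = 1.96e-05). Dynlt3 thus differed by nearly as much as Dynlt2b and in the other direction. Dynlt1, the highest paralog, gave 0.01. Of 17 genes of intraflagellar transport, the movement of cargo in cilia, 5 were called higher and 2 lower, and with the replicate block 8 and 3. Kifap3, a subunit of the outbound kinesin-2 motor, was higher by 0.80 and Ift43 by 0.43, while Kif3a, a motor subunit of the same kinesin, was lower by 0.29 and Ift88 by 0.36 (limma adjusted p = 5.65e-05, 0.00113, 0.00183 and 0.00185).

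Of 9 other genes of mitochondrial calcium handling, Letm1, an exchanger of the inner membrane (log2 0.19), and Vdac1, the outer membrane channel (0.15), were called higher over both times and none was called lower. With the block the counts were 2 higher and 2 lower, the latter being Mcu and Mcur1. Mcu, the pore of the uniporter, gave 0.03 at 1 h (limma adjusted p = 0.811) and was called lower at 6 h (-0.27, limma adjusted p = 0.0136), and its regulator Micu2 gave -0.09 over both times (limma adjusted p = 0.243). Of 10 other thyroid hormone and retinol genes, none was called higher. Crym, which binds thyroid hormone in the cytosol (-1.09), Klf9 (-0.65) and Nrgn (-0.79), both known as thyroid hormone responders, were called lower (limma adjusted p = 6.35e-06, 0.00152 and 0.0139). The block added 1 call in each direction, named here after their values were seen. Slco1c1, a thyroid hormone transporter, gave 0.60 (limma adjusted p = 0.111 without and 0.000525 with the block), and Rbp4, the retinol-binding protein that transthyretin carries, gave -0.35 (0.0636 without and 0.0097 with it).

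**Figure D4:**
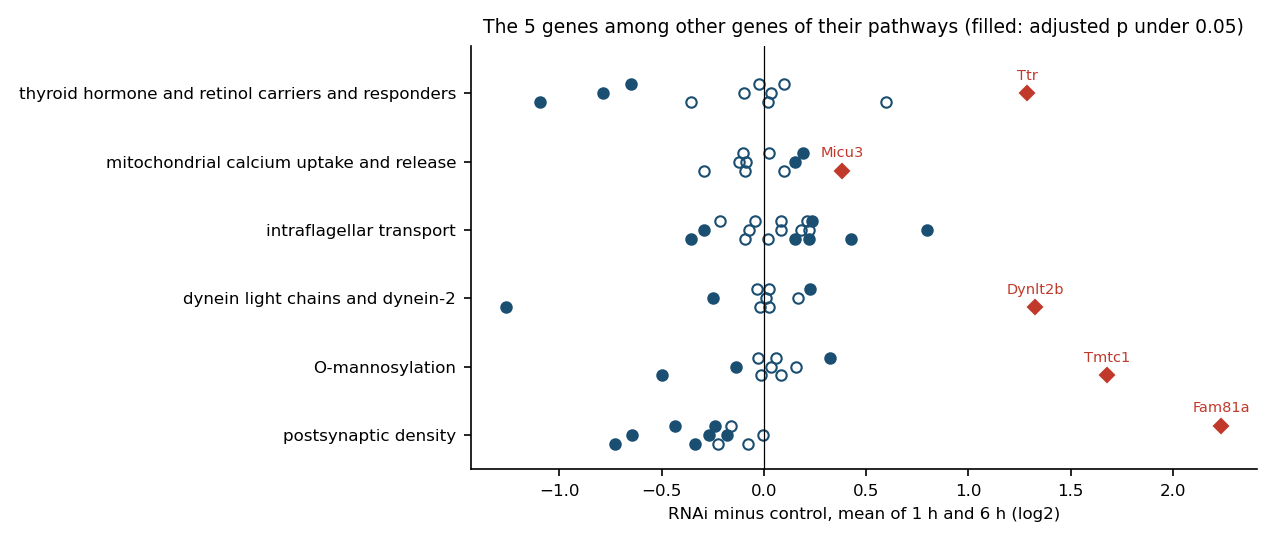
RNAi minus control, mean of 1 h and 6 h on the log2 scale, for the 5 genes (red diamonds) and the other tested genes of their lists (circles, filled where limma's adjusted p is under 0.05). The 5 genes lie at 0.38 to 2.24, and of the 11 other postsynaptic density genes 7 are filled and all of these lie below 0.

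Similarity over the 18 arrays was computed as a description, with the points sharing 2 arms, 3 times and replicate numbers. The brightest Fam81a probe set was most like Dynlt2b (Pearson r = 0.98), Pkia, an inhibitor of protein kinase A (0.967), and Rab2b, a small GTPase (0.966). Dynlt2b was most like Fam81a probe set 1394881_at (0.987), the sorting receptor gene Sorl1 (0.986) and Rab2b (0.984). Tmtc1 was most like Reep1 (0.984), Dnajc27 (0.984) and Cyb561 (0.980). Micu3 was most like Tmem276 (0.962), Ddhd2 (0.957) and Strn (0.943), and these gave smaller differences at 6 h (0.33, 0.15 and 0.15) than at 1 h (0.40, 0.48 and 0.40), as Micu3 did. Ttr was most like 2 probe sets of Chpt1, a phospholipid synthesis enzyme (0.949 and 0.944), and Suclg2, a mitochondrial enzyme (0.944).

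Among the 5 genes, r over the 18 arrays ran from 0.531 for Tmtc1 with Ttr to 0.980 for Fam81a with Dynlt2b. All 5 were chosen for being higher with RNAi on the 0 h arrays among these 18. That choice favours a positive r between them, so these values are a description only. After the mean of each group was removed, r for the same pairs was -0.591 and 0.432. For Tmtc1 with Dynlt2b it was 0.948 with the group means kept and -0.0299 with them removed.

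The nearest gene on each side with a tested probe set was taken from RefSeq order on GRCr8, so genes under the filter were passed over. These neighbours gave 1 call higher and 4 lower over the mean of 1 h and 6 h. Of all 10840 genes, 15.1% were called higher and 13.6% lower. Some neighbours were not adjacent. Between Micu3 and Tusc3, and between Tmtc1 and Ipo8, lay 2 protein-coding genes. Between Dynlt2b and Rnf168, and between Ttr and Dsg1, lay 3. Of the 10 neighbours, Myo1e beside Fam81a was called higher, by 0.23 (limma adjusted p = 0.00413). Zdhhc2 and Tusc3 beside Micu3 were called lower (-1.13 and -0.33), as were Pcyt1a beside Dynlt2b (-0.44) and B4galt6 beside Ttr (-0.42), with limma adjusted p of 6.59e-06, 0.000468, 0.000751 and 0.00163. Gcnt3, Ergic2, Ipo8, Rnf168 and Dsg1 were not called, with differences of 0.09, -0.15, -0.03, -0.02 and 0.02.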

How the data were processed

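The deposited values are intensities on a linear scale, 1 for each probe set on each array. How the authors combined probes and normalized arrays was not given in the sources used here. Symbols came from the platform annotation, where 20832 probe sets carried 1 symbol, 436 several and 9831 none. Values under the table's 20th percentile (72.61) were set to that value before log2 was taken, so fold changes of dim genes are understated. Probe sets above the 40th percentile of their own array on at least 3 of 12 arrays were tested (19321, 62.1%). Limma 3.58.1 in R 4.3.3 fitted 1 mean per group to the 12 arrays at 1 h and 6 h, leaving 8 residual degrees of freedom. Arrays at 0 h chose the members and were left out of the fit. Two-sided p-values were adjusted by Benjamini-Hochberg over every probe set tested. The fit was tested on simulated data in which the arrays varied independently. Those data held no replicate effect, so that test does not cover the correlation between same-numbered arrays.

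Having 3 arrays in a group limits precision. No 2 arrays held identical values. Deviations of same-numbered arrays from their group means correlated in all 45 pairs, at 0.103 to 0.720, so the replicate numbers, which come from the labels, were taken to pair the samples, and a fit with them as a block is given where it changes the call of a member or of a named gene, or a list's count. The members and lists were chosen with earlier results of these data known. Besides all member probe sets and the MEF2 genes, the text names up to 3 called genes with the smallest adjusted p per list. It also names the highest paralog of a member, the 3 probe sets most correlated with each member and the nearest tested neighbours. Other named genes were chosen after their values were seen. Alternatives were another floor or none, another filter or none, quantile normalization, 1 probe set per gene, all 18 arrays, the replicate block, an intensity trend and leaving out each array.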

Additional observations from a re-analysis of the deposited data

How the results depend on the processing

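Members kept their direction in every called difference, and no called difference changed sign. Counts over all probe sets moved over 1.5-fold with the replicate block (4793 at 1 h, 4909 at 6 h, and 99 for the change of the gap between the arms), with no filter on low signal (17 for that change) and with 1 probe set per gene, where fewer were tested (1736, 1786, 3261 for the mean of both times, 3 for the change, and 3769 and 3341 between 1 h and 6 h in the control and RNAi arms). With 1 probe set per gene, 3 members were called at 6 h and 3 between the times in the control arm, since Fam81a then counts once. Among member probe sets, the block changed no call but those of Ttr at 1 h and 6 h. Leaving out 1 array gave 1891 to 2804 calls at 1 h, 1745 to 3131 at 6 h, 4478 to 5050 for the mean, 0 to 8 for the change of the gap, 5043 to 6128 in the control arm and 4063 to 5565 in the RNAi arm. The lowest at 6 h was without RNAi replicate 1 at 6 h, and 1841 were called without control replicate 2 at 6 h. The change of the gap was called for 0 probe sets without control or RNAi replicate 3 at 1 h, for 2 without replicate 3 at 6 h of either arm, and for 3 without replicate 2 at 1 h of either arm or control replicate 2 at 6 h. Members called stayed at 6, 7 and 0 for 1 h, the mean and the change, and were 5 to 6 at 6 h, 5 in the control arm and 4 to 6 in the RNAi arm.

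Without the filter, Ttr over the mean (adjusted p = 0.0584) and Fam81a 1373218_at between the times in the RNAi arm (0.0897) were not called, and the latter was not called with all 18 arrays (0.0638). Leaving out 1 array turned the sign of 9 differences that were not called. These were the change of the gap for Fam81a 1378245_at (-0.047 to 0.12) and Ttr (-0.24 to 0.66), and between 1 h and 6 h Micu3 in the control arm (-0.12 to 0.039) and Ttr in the RNAi arm (-0.55 to 0.13). The cause was not tested. Signal near background limits Tmtc1 and Fam81a 1394881_at in the control arm at 6 h, where 2 of 3 arrays were above the filter.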
